A study of Mus musculus with 27 samples.

Results

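Glypicans and syndecans are the main heparan sulfate proteoglycans of the cell surface, and their 10 genes, Gpc1 to Gpc6 and Sdc1 to Sdc4, were followed here across 6 groups of mice. The 10 genes were chosen by their symbols, and the family itself was selected on the readout, because Gpc6 was among the strongest falls in C9-BACexp mice. They are 10 of the 39338 genes and added sequences in the count table, and all 10 were among the 21768 genes that passed the filter on low counts and were tested. The choice rests on the difference between C9-BACexp and C57BL/6J mice and names no treatment, so the genotype differences of Gpc6 are described below with no test, in all 3 treatments.

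A heparan sulfate proteoglycan is a core protein that carries long, sulfated sugar chains, which bind growth factors, morphogens, guidance cues and synaptic receptors. Glypicans are held in the outer leaflet of the membrane by a lipid anchor and can be released by cutting it, whereas syndecans span the membrane and reach the cytoskeleton through a short tail. In the brain they are known from axon guidance, from signaling by fibroblast growth factors, Wnt and Hedgehog, and from the formation of excitatory synapses, for which glypicans released by astrocytes are well-described signals.

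RNA was measured in nuclei from the motor cortex of C9-BACexp mice, a transgenic line on the C57BL/6J background that carries a bacterial artificial chromosome with human C9ORF72 and its expanded repeat, the most common genetic cause of ALS and frontotemporal dementia, and of C57BL/6J littermates without the transgene. The study asked whether RfxCas13d-N2V8, a high-fidelity form of an RNA-cutting CRISPR effector, changes what the transgene does to the transcriptome. Nuclei were sorted by EGFP-KASH, a green fluorescent protein tethered to the nuclear envelope, and each library is the sorted nuclei of 1 animal. Total RNA was sequenced, so unspliced transcripts count as well as spliced ones.

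The groups were as follows. C9-BACexp mice (n = 6) and C57BL/6J mice (n = 3) received RfxCas13d-N2V8 with crRNA-13, a guide against human C9ORF72 RNA, also where the mouse carries no transgene. C9-BACexp mice (n = 6) and C57BL/6J mice (n = 5) received the effector with a non-targeted guide (NTG). C9-BACexp mice (n = 3) and C57BL/6J mice (n = 4) received EGFP-KASH only. Every mouse, controls included, carried the EGFP-KASH vector, and no group was left uninjected. The labels name RfxCas13d as the effector of the NTG mice, where the study's methods name RfxCas13d-N2V8. Both proteins were driven by the ubiquitous CAG promoter from PHP.eB, an adeno-associated virus of broad reach in the brain. In the study's staining of C9-BACexp mice, EGFP-KASH nevertheless lay mostly in neurons, marked by NeuN. Its signal in astrocytes and microglia was limited. Mice with a guide were injected at 6 weeks of age and their nuclei were taken 2 months later; the age of the EGFP-KASH only mice was not given in the sources used here. The transgene is a single insertion line, and the sex of each mouse is not in the labels.

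Library totals ran from 21508829 to 36777972 counts, with a median of 29001126, and no pair of libraries was identical (Spearman correlation 0.911 to 0.954). Human C9ORF72 transcripts, summed, stood at 64.1 to 99.8 CPM with crRNA-13, 80.5 to 103 CPM with NTG and 83.6 to 101 CPM with EGFP-KASH only in C9-BACexp mice, and were counted in 1 of 12 C57BL/6J libraries, at 0.438 CPM. The sum takes in V2, the main variant, which the guide was designed to spare, so it does not show the targeting. By qPCR on sorted nuclei, the study reported less of the repeat-carrying variant V3 and no difference in all variants together. Here CPM is a gene's count relative to the total of its library, in the usual unit, with totals scaled by the TMM method. The labels call the cells primary neurons, but markers of other cells were present: the summed level of 20 oligodendrocyte markers ran from 871 to 6082 CPM over the 15 C9-BACexp libraries and from 459 to 2718 CPM over the 12 C57BL/6J libraries, and none of the 20 was at 0 throughout. In bulk nuclei, fewer cells of a type and less RNA per cell cannot be told apart.

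CPM is not corrected for gene length, and the 10 genes span 6.372 kb for Gpc2 to 1433 kb for Gpc5 in the GRCm39 genome (GENCODE vM39), so levels were not compared between genes. Gpc5 (chromosome 14, 115329647 to 116762591, plus strand) and Gpc6 (chromosome 14, 117162727 to 118216940, plus strand) lie close together, and so do Gpc4 (chromosome X, 51139255 to 51254262, minus strand) and Gpc3 (chromosome X, 51361303 to 51703137, minus strand). The exons of the canonical transcript make up 0.155% of the span of Gpc5 and 0.614% of that of Gpc6, so reads of nuclear RNA from introns could weigh heavily in both. Within the family, the gene with the steadiest level was Sdc3, whose highest of 27 libraries stood 1.54-fold above its lowest, and the least steady with counts in every library was Gpc3, at 99.3-fold. Over the 45 pairs of members, the Spearman correlation across the 27 libraries had a median of 0.07 and was above 0.5 for 1 pair, Gpc5 with Gpc6 (0.68). Within genotypes that correlation was 0.84 over the 15 C9-BACexp libraries and -0.03 over the 12 C57BL/6J libraries, which share depth, sorting and processing.

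Gpc6 encodes a glypican that astrocytes release and that promotes excitatory synapses on neurons in mice. With NTG, the 6 C9-BACexp mice had a lowest, median and highest Gpc6 level of 220.5, 261 and 293 CPM, against 694.8, 623, 693, 499 and 349 CPM in the 5 C57BL/6J mice. All 6 C9-BACexp mice lay below the lowest C57BL/6J mouse, replicate 5, and the C57BL/6J mice were far more scattered. The means were 260.3 ± 26.0 CPM in the 6 C9-BACexp mice and 572 ± 148 CPM in the 5 C57BL/6J mice (± SD), so the C9-BACexp mean was 45.5% of the C57BL/6J mean, and the fitted log2 fold change was -1.09 (standard error 0.10). Gpc6 was selected on its difference between genotypes, and nothing is read from the size of that difference here or with the other treatments.

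**Figure D1:**
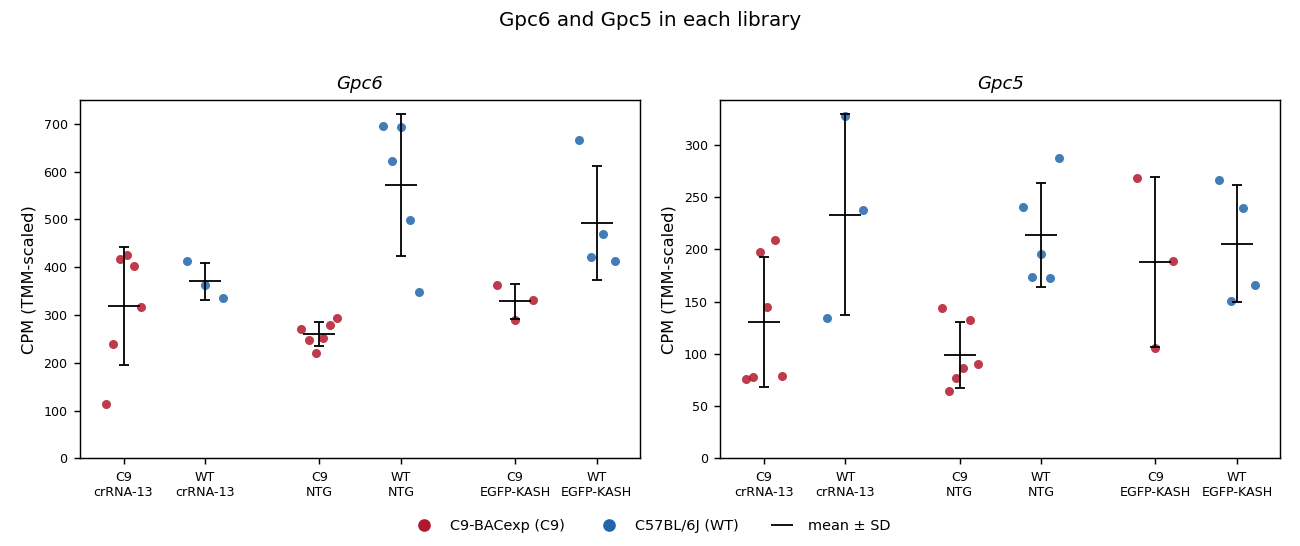
Level of Gpc6 (left) and Gpc5 (right) in CPM, with 1 point per library in 6 groups, C9-BACexp (C9, red) beside C57BL/6J (WT, blue) within each treatment, and bars for the mean ± SD. The Gpc6 points of C9 and WT mice do not overlap with NTG (220.5 to 293 against 349 to 694.8 CPM) or with EGFP-KASH only (289.9 to 363 against 413 to 667 CPM) and overlap with crRNA-13, and the Gpc5 points are apart only with NTG.

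With EGFP-KASH only, Gpc6 stood at 363, 289.9 and 332 CPM in the C9-BACexp mice, against 667, 422, 469 and 413 CPM in the C57BL/6J mice. Again the highest C9-BACexp mouse was below the lowest C57BL/6J mouse. The means were 328 ± 36.8 CPM (SD, n = 3) and 493 ± 119 CPM (SD, n = 4), and the fitted log2 fold change was -0.57 (standard error 0.13). The limits used for all genes were an adjusted p under 0.05 and a fold change over 1.2, which 2.86% of all genes passed in this comparison and 1 member of 10, Gpc6; since Gpc6 was selected, nothing is read from that count. Gpc6 was no longer past the limits without the 4 factors of unwanted variation in the model, which absorb shifts that many genes share within groups (log2 fold change -0.58), nor with 2 factors (-0.52) or with the replicate number as a block (-0.53). The same held without C9-BACexp replicate 3 (-0.47) or 5 (-0.58) or C57BL/6J replicate 2 (-0.41).

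With crRNA-13 the genotypes overlapped. Gpc6 stood at 114, 360.4 and 425 CPM (lowest, median, highest) in the 6 C9-BACexp mice, against 413, 363 and 335 CPM in the 3 C57BL/6J mice. Replicate 1 was the lowest of all 27 libraries, while 2 of the 6 C9-BACexp mice lay above every C57BL/6J mouse. The means were 319 ± 124 CPM (SD, n = 6) and 370.3 ± 39.2 CPM (SD, n = 3). The fitted log2 fold change was -0.34 (standard error 0.12). Without replicate 1 of the C9-BACexp mice it was -0.07, and over all libraries left out in turn it ran from -0.44 to -0.07. It was -0.21 without the factors of unwanted variation and -0.54 with the replicate number as a block. No member of the family was called with crRNA-13, where 1.09% of all genes were, and DESeq2 and limma-trend also called 0. An unadjusted p under 0.05 in edgeR was found for 5 of the 10, the selected Gpc6 among them, and for 12.4% of all genes. Nothing is read from that count. Whether the genotype difference of Gpc6 itself differs between crRNA-13 and EGFP-KASH only was not tested.

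Seen by treatment, the order of the Gpc6 group means was C57BL/6J with NTG, C57BL/6J with EGFP-KASH only, C57BL/6J with crRNA-13, then C9-BACexp with EGFP-KASH only, with crRNA-13 and with NTG. Of the 5 gaps between neighbours in that order, 2 were slightly larger than the larger SD of the pair: 122 CPM, against an SD of 119 CPM, between C57BL/6J mice with crRNA-13 and with EGFP-KASH only, and 41.9 CPM, against an SD of 39.2 CPM, between C9-BACexp mice with EGFP-KASH only and C57BL/6J mice with crRNA-13. The other 3 gaps lay within it, so those neighbours did not differ beyond their spread. In C57BL/6J mice, the Gpc6 log2 fold change of crRNA-13 over EGFP-KASH only was -0.39 (standard error 0.13). Since the choice of Gpc6 names no treatment, its values in these mice are described with no test too. There 0 members of the family and 0.404% of all genes were called. An unadjusted p under 0.05 in edgeR was found for 1 member, the selected Gpc6, and 11.2% of all genes. In C9-BACexp mice the Gpc6 log2 fold change was -0.15 (standard error 0.12), with 0 members called and 0.923% of all genes. In that comparison 1 member and 12.2% of all genes had an unadjusted p under 0.05 in edgeR. DESeq2 with the same factors called 1 member there, Gpc4. Its share over all genes is not given for this comparison, and DESeq2 called more genes than edgeR between genotypes. Nothing is therefore read from that count. The comparisons with NTG are likewise described only, and nothing is read from any call of Gpc6 in them. The log2 fold change of crRNA-13 over NTG was 0.17 (standard error 0.10) in C9-BACexp mice and -0.58 (standard error 0.13) in C57BL/6J mice, and the difference of the genotype differences, with crRNA-13 minus with NTG, was 0.75 (standard error 0.16). These comparisons share mice, so they are not independent of each other.

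Markers of several cell types followed Gpc6 or ran against it across the libraries. Across the 27 libraries the Spearman correlation between Gpc6 and the summed oligodendrocyte markers was -0.75, and it was -0.69 over the 15 C9-BACexp and -0.78 over the 12 C57BL/6J libraries; the list was picked out from 10 marker lists after its values were seen, and the points share depth, sorting and scaling. Other lists ran against Gpc6 or followed it too. For microglia markers it was -0.37 over all, -0.75 in C9-BACexp and -0.82 in C57BL/6J libraries. For deep-layer neuron markers it was -0.57, -0.66 and -0.29 in the same order, and for upper-layer neuron markers 0.45, 0.49 and 0.79. Markers of excitatory neurons had 0.63, 0.31 and 0.61, and the other 5 lists lay between -0.45 and 0.47 over all libraries. The library with the least Gpc6, C9-BACexp crRNA-13 replicate 1 at 114 CPM, had the highest oligodendrocyte sum, 6082 CPM, and the C57BL/6J NTG mouse with the least Gpc6, replicate 5 at 349 CPM, had the highest sum of its group, 2718 CPM. With EGFP-KASH only, 8 of the 20 oligodendrocyte markers were called higher in C9-BACexp mice, whose sums were 1907 to 2620 CPM, against 513 to 2008 CPM in C57BL/6J mice. With NTG 16 of the 20 were called higher (1483 to 3445 CPM against 459 to 2718 CPM), and with crRNA-13 1 of the 20 was (871 to 6082 CPM against 1119 to 2034 CPM). No oligodendrocyte marker was called lower in these 3 comparisons. The part of these or other cells in the Gpc6 values was not tested.

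**Figure D2:**
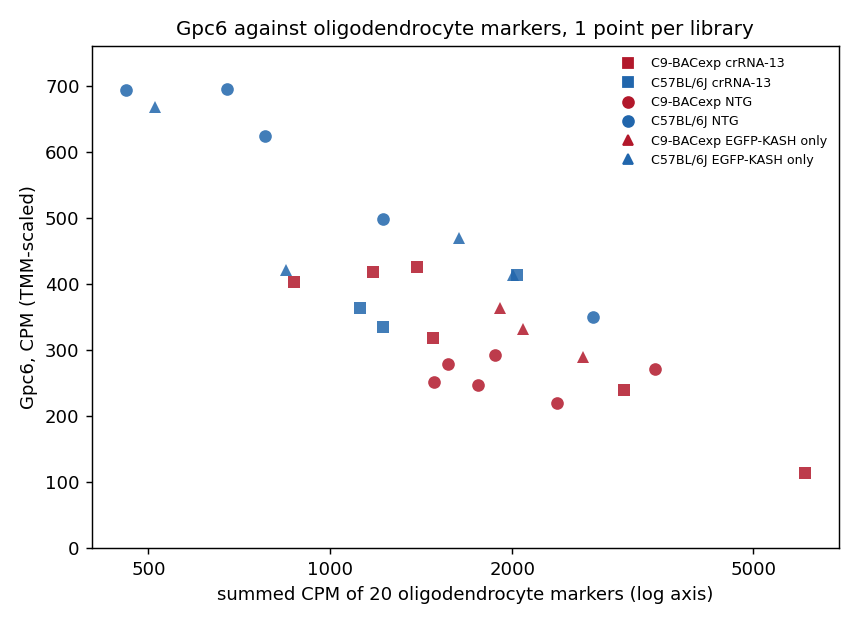
Level of Gpc6 in CPM (vertical axis) against the summed CPM of 20 oligodendrocyte markers (horizontal, log axis), with 1 point per library, coloured by genotype and shaped by treatment. Libraries with more oligodendrocyte marker RNA had less Gpc6 within each genotype as well as over all 27 (Spearman correlation -0.75), and C9-BACexp crRNA-13 replicate 1 is at the far right, at 114 CPM of Gpc6.

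Astrocyte markers are the other list of interest for this family, since astrocytes express several glypicans. Of 18 astrocyte markers, 0 were called in either direction with EGFP-KASH only, where the sums were 932 to 1077 CPM in C9-BACexp mice and 1011 to 1329 CPM in C57BL/6J mice. With crRNA-13, 3 of 18 were called lower and 0 higher (934 to 1130 CPM against 922 to 1404 CPM), and with NTG 4 of 18 were called lower and 0 higher (853 to 1205 CPM against 1025 to 1203 CPM). No astrocyte marker was at 0 throughout. The Spearman correlation of their sum with Gpc6 was 0.39 over all 27 libraries. It was 0.325 over the C9-BACexp and -0.49 over the C57BL/6J libraries. Of 14 upper-layer neuron markers, 2 were called higher and 0 lower with EGFP-KASH only (1612 to 2105 CPM against 1582 to 2057 CPM), 0 in either direction with crRNA-13, and 1 higher and 5 lower with NTG. Of 18 markers of striatal projection neurons, which lie next to the cortex, 0 were called with EGFP-KASH only, 1 was called higher with crRNA-13 and 5 with NTG (1997 to 12218 CPM in C9-BACexp mice against 1482 to 2917 CPM in C57BL/6J mice). The part of these cells in the family's values was not tested.

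Gpc5, on the same strand as Gpc6 and close to it, encodes a glypican of astrocytes and neurons. With NTG it stood at 64.1, 88.2 and 144 CPM (lowest, median, highest) in the 6 C9-BACexp mice, against 240.1, 173, 195, 173 and 287 CPM in the 5 C57BL/6J mice. All 6 C9-BACexp mice were below every C57BL/6J mouse. The means were 98.9 ± 31.9 CPM (SD, n = 6) and 214 ± 49.3 CPM (SD, n = 5), and the log2 fold change was -1.07 (standard error 0.27). Gpc5 and Gpc6 were the 2 members past the limits in this contrast, where 6.6% of all genes were. Because Gpc6 was selected on its difference between genotypes, nothing is read from the count. Gpc5 was no longer past the limits in 12 of 37 alternatives, some of them with a single library left out. Over the left-out libraries its log2 fold change ran from -1.23 to -0.94.

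With crRNA-13, Gpc5 stood at 76.2, 112 and 209 CPM (lowest, median, highest) in C9-BACexp mice, against 135, 327 and 237 CPM in C57BL/6J mice. Within the C9-BACexp mice, replicates 1, 2 and 7 were at 76.2 to 78.6 CPM, below every C57BL/6J mouse, and replicates 3, 4 and 6 were at 145 to 209 CPM, inside the C57BL/6J range. The fitted log2 fold change of Gpc5 was -0.90 (standard error 0.31, adjusted p = 0.134 in edgeR) and did not pass, with an adjusted p of 0.0581 to 0.570 over the alternatives. With EGFP-KASH only, Gpc5 stood at 268, 106 and 189 CPM in C9-BACexp mice and at 266, 151, 239 and 165 CPM in C57BL/6J mice, and the ranges overlapped. The log2 fold change was -0.21 (standard error 0.34, adjusted p = 0.828 in edgeR), and it changed sign, to 0.14, without C9-BACexp replicate 3.

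Of the genes within 1 Mb of either end of Gpc6, 9 were tested, and Gpc5, with NTG, was the 1 past the limits in any of the 3 genotype comparisons. The median log2 fold change of the 9 was -0.03 with NTG, 0.07 with crRNA-13 and 0.12 with EGFP-KASH only.

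Gpc4 is the other glypican that astrocytes release to promote synapses in mice, and on neurons it binds the receptors LRRTM4 and GPR158. With crRNA-13 it stood at 9.04, 13.2 and 23.2 CPM (lowest, median, highest) in the 6 C9-BACexp mice, against 12.1, 3.07 and 13.4 CPM in the 3 C57BL/6J mice. With EGFP-KASH only it stood at 2.04, 17.5 and 8.504 CPM in C9-BACexp mice, against 10.9, 12.3, 15.03 and 12.8 CPM in C57BL/6J mice. The lowest levels of Gpc4 in the series were those of C9-BACexp EGFP-KASH only replicate 2 and C57BL/6J crRNA-13 replicate 2, and the groups overlapped.

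The size of the fitted differences of Gpc4 therefore moved with single libraries. Between genotypes the log2 fold change was 0.68 with crRNA-13 (standard error 0.29, adjusted p = 0.242 in edgeR) and -0.82 with EGFP-KASH only (standard error 0.31, adjusted p = 0.186 in edgeR). In C9-BACexp mice, crRNA-13 over EGFP-KASH only gave 0.97 (standard error 0.30, adjusted p = 0.0910 in edgeR), and neither this nor the genotype differences passed. Without C9-BACexp EGFP-KASH only replicate 2 the genotype difference with EGFP-KASH only was 0.008, and without replicate 3 it was -1.52 and past the limits (adjusted p = 0.0365, over all alternatives 0.0365 to 0.999). Without the same replicate 3, crRNA-13 over EGFP-KASH only in C9-BACexp mice was 1.68 and also past the limits (adjusted p = 0.0174, over all alternatives 0.0174 to 0.924), and it also passed, at 0.96, without C57BL/6J crRNA-13 replicate 2 (adjusted p = 0.0314). With no library left out, DESeq2 with the same factors called that difference as well (0.97, adjusted p = 0.0239 in DESeq2).

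Gpc3, a glypican known for restraining body growth through Hedgehog signaling and located close to Gpc4, was either counted in the ordinary way or nearly missing from a library. It stood at 0.19, 4.15 and 12.2 CPM (lowest, median, highest) in C9-BACexp mice with crRNA-13, against 8.18, 0.23 and 7.17 CPM in C57BL/6J mice. With NTG it stood at 0.56, 5.58 and 11.2 CPM in C9-BACexp mice, against 13.2, 19.1, 3.92, 5.58 and 3.19 CPM in C57BL/6J mice. With EGFP-KASH only it stood at 16.8, 11.965 and 4.93 CPM in C9-BACexp mice, against 6.59, 2.15, 13.6 and 4.85 CPM in C57BL/6J mice. The libraries below 1 CPM were C9-BACexp NTG replicate 3, C9-BACexp crRNA-13 replicates 2 and 6, and C57BL/6J crRNA-13 replicate 2. Every comparison overlapped. The genotype log2 fold change was -0.46 with crRNA-13 (standard error 1.02) and 0.78 with EGFP-KASH only (standard error 1.07), so differences of this size could not be resolved.

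Gpc1, a neuronal glypican that binds fibroblast growth factors and Slit proteins, had group means between 57.5 and 70.8 CPM. With crRNA-13 its mean was 69.2 ± 18.5 CPM in C9-BACexp mice (SD, n = 6) and 57.5 ± 6.48 CPM in C57BL/6J mice (SD, n = 3), and with EGFP-KASH only it was 60.3 ± 9.93 CPM (SD, n = 3) and 65.0 ± 15.6 CPM (SD, n = 4). The genotype log2 fold change was 0.25 (standard error 0.12, adjusted p = 0.330 in edgeR) with crRNA-13 and -0.08 (standard error 0.13, adjusted p = 0.834 in edgeR) with EGFP-KASH only. The gene overlaps Ankmy1 on the other strand; the kit keeps the strand, but whether the counting used it was not given in the sources used here. Gpc2, or cerebroglycan, known from neurons that are still migrating and growing axons, was close to the floor of the data, at group means of 0.39 to 0.96 CPM and with 7.47 to 34.5 estimated counts per library. Its genotype differences had standard errors of 0.45 with crRNA-13 and 0.52 with EGFP-KASH only, and none passed.

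Among the syndecans, Sdc3 and Sdc2 are those of neurons: Sdc3 is a receptor for pleiotrophin on axons and Sdc2 takes part in the maturation of dendritic spines. Sdc3 averaged 55.0 ± 7.14 CPM with crRNA-13, 53.1 ± 3.45 CPM with NTG and 48.3 ± 4.37 CPM with EGFP-KASH only in C9-BACexp mice, against 54.4 ± 7.34, 51.7 ± 6.26 and 52.1 ± 6.25 CPM in C57BL/6J mice with the same treatments (SD, n as above). Its genotype log2 fold change was 0.02 with crRNA-13 (standard error 0.12) and -0.10 with EGFP-KASH only (standard error 0.13), differences smaller than the spread between mice. Sdc2 averaged 38.3 ± 8.74 CPM in C9-BACexp mice and 47.3 ± 5.35 CPM in C57BL/6J mice with crRNA-13, where 4 of the 6 C9-BACexp mice lay below the lowest C57BL/6J mouse. Fitted, the Sdc2 log2 fold change was -0.31 (standard error 0.14, adjusted p = 0.292 in edgeR), and with EGFP-KASH only it was -0.07 (standard error 0.16, adjusted p = 0.890 in edgeR).

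Sdc4, a syndecan of focal adhesions and of glia that works with protein kinase C alpha, was low but countable in every library, at 1.37 to 10.2 CPM. With crRNA-13 it stood at 2.58, 3.68 and 6.65 CPM (lowest, median, highest) in C9-BACexp mice, against 5.98, 10.2 and 6.34 CPM in C57BL/6J mice, and 5 of the 6 C9-BACexp mice lay below the lowest C57BL/6J mouse. The log2 fold change was -0.92 (standard error 0.34, adjusted p = 0.165 in edgeR), and with EGFP-KASH only it was -0.33 (standard error 0.38, adjusted p = 0.739 in edgeR), so neither passed. With NTG it was -0.85 (standard error 0.30). Sdc1, best known from epithelia and plasma cells, had group means of 0.32 to 0.70 CPM and was at 0 in C9-BACexp crRNA-13 replicate 3, where a count of 0 allows a level of up to 0.135 CPM (3 counts, counting error only). No difference of Sdc1 was detectable at this depth.

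**Figure D3:**
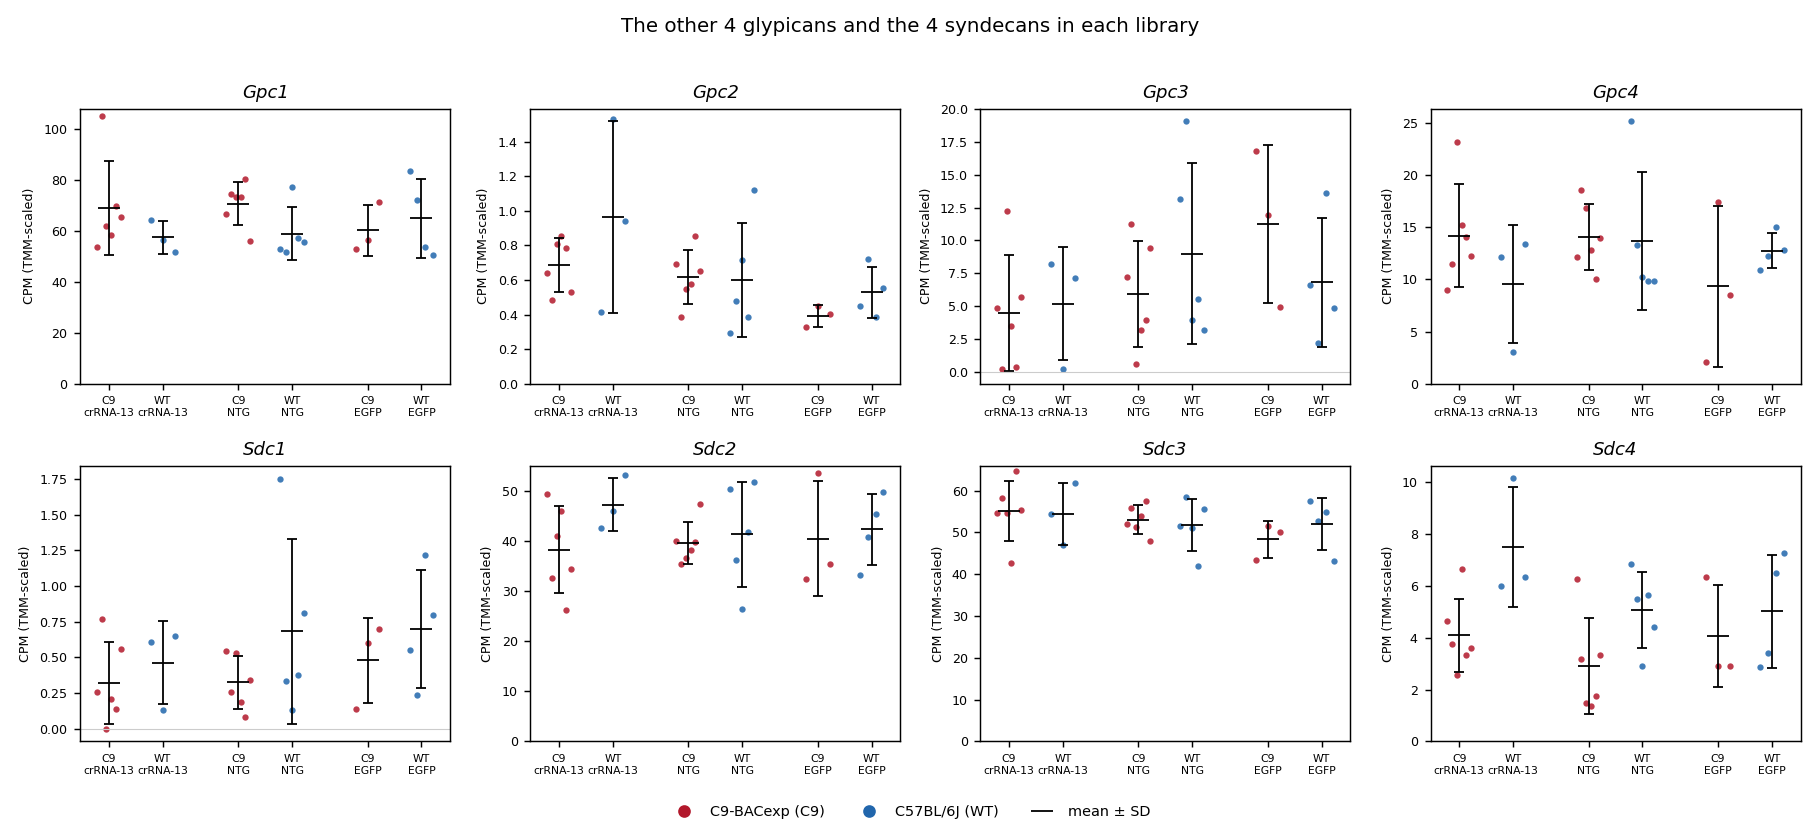
Level of the other 8 members in CPM, with 1 point per library in 6 groups, C9-BACexp (C9, red) beside C57BL/6J (WT, blue) within each treatment (EGFP stands for EGFP-KASH only), and bars for the mean ± SD. Sdc3 is the most even, from 42.0 to 64.7 CPM, and Sdc4 with crRNA-13 has 5 of 6 C9 mice under the lowest WT mouse. Gpc3 drops below 1 CPM in C9 libraries with NTG and crRNA-13 and in a WT library with crRNA-13.

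Set beside all genes, most members had negative fold changes in C9-BACexp mice, and few passed the limits. With crRNA-13, 7 of 10 members had a negative log2 fold change and the median was -0.36. All genes tested had a median of -0.0033, and 49.6% of them were positive. With EGFP-KASH only, 9 of 10 were negative and the median was -0.27, against -0.03 for all genes, of which 46.4% were positive. With NTG 6 of 10 were negative and the median was -0.26, against 0.02 for all genes, of which 51.9% were positive. These are descriptions of 10 chosen genes, not a test of the family. The 10 include the selected Gpc6, and Gpc2, Gpc3 and Sdc1, which are limited by few counts or by libraries that nearly lack them.

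**Figure D4:**
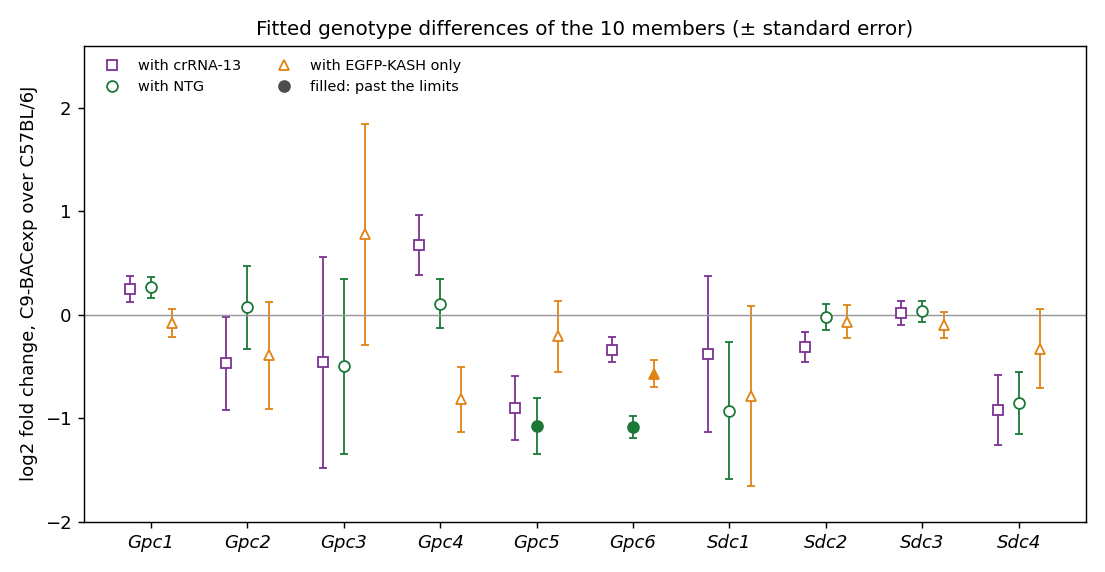
Fitted log2 fold change of C9-BACexp over C57BL/6J for the 10 members with crRNA-13, NTG and EGFP-KASH only, with bars for the standard error and filled marks for values past the limits. Gpc6 lies below 0 in all 3, from -1.09 with NTG to -0.34 with crRNA-13, Gpc4 has opposite signs with crRNA-13 and EGFP-KASH only, and Gpc3 and Sdc1 have the longest bars; Gpc6 was selected on its difference between genotypes.

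Between treatments within a genotype, no member was called in edgeR. In C9-BACexp mice, 0 members of 10 were called for crRNA-13 over NTG (0.478% of all genes) and for NTG over EGFP-KASH only (0.0322% of all genes). An unadjusted p under 0.05 in edgeR was found for 0 members and 10.3% of all genes in the first. In the second it was found for 3 members and 11.2% of all genes. In C57BL/6J mice, 0 members and 0% of all genes were called for crRNA-13 over NTG, under the stricter limits of that comparison, although 2413 genes and 1 member had an unadjusted p under 0.05. For NTG over EGFP-KASH only in C57BL/6J mice, 0 members and again 0% of all genes were called, with 1712 genes and 0 members at an unadjusted p under 0.05. The difference of the genotype differences called 0.00459% of all genes and 0 members. There 1 member, Gpc6, and 10.4% of all genes had an unadjusted p under 0.05 in edgeR, and DESeq2 called Gpc6. DESeq2 with the same factors called 177 genes for crRNA-13 over NTG in C57BL/6J mice, 1 of them a member, Gpc6. It called 56 genes and 0 members for NTG over EGFP-KASH only, and limma-trend called 0 genes in both. Gpc6 was selected on its genotype difference, which shares mice with the comparisons with NTG, so nothing is read from its calls here.

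The enzymes that build and edit the heparan sulfate chain give the core proteins their function. Of 32 such genes 31 were tested. With crRNA-13, 0 were called in either direction (median log2 fold change 0.04), and with EGFP-KASH only 1 was called higher and 0 lower (median 0.06). The gene was Xylt1, a xylosyltransferase that starts the chain on the core protein. It stood at 481, 762 and 629 CPM in C9-BACexp mice, against 681, 533, 312 and 302 CPM in C57BL/6J mice, and the groups overlapped. Its log2 fold change was 0.54 (standard error 0.12, adjusted p = 0.0153 in edgeR), and the call was lost in 6 of 37 alternatives, among them without C57BL/6J replicate 4 (0.39, adjusted p = 0.137) or 5 (0.37, adjusted p = 0.185) and without C9-BACexp replicate 3 (0.40, adjusted p = 0.115). With NTG, a contrast that is described and not tested here, 6.6% of all genes were past the limits. Of the 31, 6 were past them upward, Xylt1 among them (log2 fold change 0.42), and 1 downward (median 0.13). The 4 with the smallest p were Ndst1, an enzyme that opens the sulfation of the chain (126.8 ± 8.46 CPM in C9-BACexp mice against 89.6 ± 16.9 CPM in C57BL/6J mice), Sulf1, which removes sulfate outside the cell (196 ± 33.0 against 110.04 ± 24.1 CPM), Xylt2 (24.3 ± 2.35 against 18.6 ± 4.78 CPM) and Hs6st2, a sulfotransferase (129 ± 32.5 against 83.2 ± 11.2 CPM). Ndst3, a relative of Ndst1 named after its values were seen, was the 1 below (134.8 ± 24.0 against 203 ± 56.98 CPM; SD, n = 6 and 5 throughout). Ndst3 ran against the oligodendrocyte markers (Spearman correlation -0.67 over the 27 libraries). Sulf1, and Hs3st4, which was also past the limits upward, are among the 19 deep-layer neuron markers tested, of which 7 were called higher with NTG, where their sums were 3756 to 4683 CPM in C9-BACexp mice and 2146 to 4047 CPM in C57BL/6J mice; the part of these neurons was not tested.

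Of 11 enzymes that shed core proteins or cut the glypican anchor, 1 was called, Gdpd5. It encodes GDE2, a membrane phosphodiesterase that releases lipid-anchored proteins, glypican-6 among them in human cells. With crRNA-13, Gdpd5 stood at 81.1, 95.05 and 269 CPM (lowest, median, highest) in C9-BACexp mice, against 86.7, 62.7 and 54.4 CPM in C57BL/6J mice. The ranges overlapped by 1 C9-BACexp mouse, and replicate 2 stood far above the others. The log2 fold change was 0.75 (standard error 0.17, adjusted p = 0.0181 in edgeR), Gdpd5 was the 1 gene called higher of 11 with 0 lower (median -0.14), and the call was lost in 8 of 37 alternatives, among them without C9-BACexp replicate 2 (0.45, adjusted p = 0.0882) and without C57BL/6J replicate 2 (0.70, adjusted p = 0.0619) or 5 (0.60, adjusted p = 0.130). With EGFP-KASH only, 0 of 11 were called (median 0.16), and Gdpd5 stood at 57.4, 104 and 87.5 CPM in C9-BACexp mice, against 78.6, 73.1, 39.6 and 59.5 CPM in C57BL/6J mice. With NTG it averaged 101 ± 17.3 CPM (SD, n = 6) against 58.2 ± 16.3 CPM (SD, n = 5), and was again the 1 gene past the limits.

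Other proteins that carry heparan sulfate, 13 in number, had 0 calls with crRNA-13 (median -0.0069) and 0 with EGFP-KASH only (median 0.0098). With NTG, 2 were past the limits upward and 0 downward (median 0.20): Nrxn3, a presynaptic neurexin, at 5125 ± 614 CPM against 4078 ± 760.4 CPM, and Col18a1, a basement membrane collagen, at 1.94 ± 0.71 against 0.77 ± 0.41 CPM. Of 27 partners that bind glypicans or syndecans, 0 were called with crRNA-13 (median -0.01) and 2 were called higher and 0 lower with EGFP-KASH only (median 0.02). They were Fgfr2, a receptor for fibroblast growth factors (log2 fold change 0.88, its standard error 0.17; edgeR, adjusted p = 0.0071), and Slit1, an axon guidance ligand (0.47, standard error 0.12, adjusted p = 0.0340 in edgeR). Fgfr2 stood at 76.1, 110 and 98.3 CPM in C9-BACexp mice, against 33.4, 34.4, 70.01 and 81.2 CPM in C57BL/6J mice. Its call was lost in 4 of 37 alternatives, among them without C57BL/6J replicate 3 (0.70, adjusted p = 0.0508 in edgeR). It went with the oligodendrocyte markers across the 27 libraries (Spearman correlation 0.94), and the part of those cells was not tested. Slit1 stood at 241, 209 and 228 CPM in C9-BACexp mice, inside the 96.9 to 261 CPM of C57BL/6J mice. The Slit1 call was lost in 8 of 37 alternatives. Among them were those without C57BL/6J replicate 4 (0.23, adjusted p = 0.403 in edgeR) or 5 (0.28, adjusted p = 0.306 in edgeR). The call was also lost without C9-BACexp replicate 2 (0.43, adjusted p = 0.125 in edgeR) or 5 (0.47, adjusted p = 0.0795 in edgeR). With NTG, Fgfr2 and Slit1 were past the limits upward and Robo2, the receptor of Slit proteins, downward (2756 ± 324 against 3515 ± 133 CPM; median of the 27 partners 0.03).

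**Figure D5:**
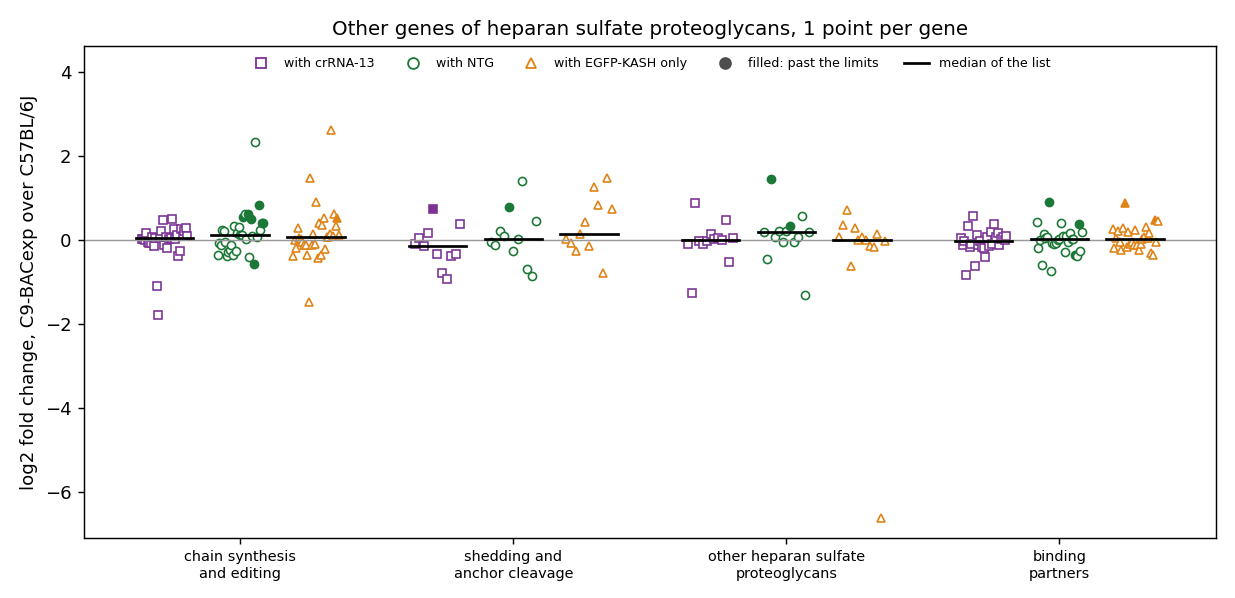
Fitted log2 fold change of C9-BACexp over C57BL/6J for 4 lists of other heparan sulfate genes, with 1 point per gene for crRNA-13, NTG and EGFP-KASH only, filled where past the limits, and a line at each list's median. The medians lie between -0.14 and 0.20, 1 gene is filled with crRNA-13 (Gdpd5) and 3 with EGFP-KASH only (Xylt1, Fgfr2, Slit1), and the lowest point is Srgn, at -6.63 with a standard error of 2.80.

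The genes whose level across the 27 libraries was most like that of Gpc6 were searched for among 13239 named genes whose mean was 1 CPM or more. Lrfn5, a synaptic adhesion protein, came first (Spearman correlation 0.90), followed by Pdzrn3, an E3 ubiquitin ligase (0.86), Stard8 (0.84), Rskr, a protein kinase by its annotation (0.83), and Ccbe1, a secreted factor of lymphatic growth (0.83). Within genotypes Lrfn5 had 0.93 over the 15 C9-BACexp and 0.88 over the 12 C57BL/6J libraries. The other 4 had 0.53 (Ccbe1) to 0.81 (Stard8) over the C9-BACexp libraries and 0.56 (Stard8) to 0.59 (Rskr and Ccbe1) over the C57BL/6J libraries. All 5 had negative correlations with the oligodendrocyte markers, from -0.77 for Pdzrn3 to -0.59 for Ccbe1. Since the 5 were picked for following Gpc6 over the same libraries, nothing is read from that sign. With NTG all 5 were past the limits and lower in C9-BACexp mice, with log2 fold changes from -1.11 for Stard8 to -0.43 for Lrfn5; the 5 were picked for following Gpc6 over these same mice, so their genotype values are a description. None of the 5 was past them with crRNA-13 or with EGFP-KASH only. Lrfn5 averaged 608 CPM in C9-BACexp mice and 705.1 CPM in C57BL/6J mice with EGFP-KASH only (log2 fold change -0.23, its standard error 0.11), and Pdzrn3 had -0.63 (standard error 0.17).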

How the data were processed

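Nuclei sorted from the motor cortex of 27 mice were profiled with a stranded total RNA kit after depletion of ribosomal RNA. The authors quantified reads with Salmon 1.10.0 against spliced and unspliced mouse transcripts, human C9ORF72 transcripts and EGFP-KASH, with GRCm39 as decoy, and deposited expected counts per gene (length-scaled, R 4.3.1); expected counts from unspliced and spliced RNA of a gene are not separated. Counts were rounded to whole numbers. Genes were filtered with filterByExpr (at least 10 counts, 15 in total) and scaled by TMM, and all 27 libraries were fitted in 1 model of 6 groups with 4 factors of unwanted variation (RUVr; the study's methods name the RUVSeq package but not the method, which is an assumption here) using the quasi-likelihood test of edgeR 4.0.16 (R 4.3.3). The study's own fit was limma-trend; limma 3.58.1 and DESeq2 1.42.0 were run as alternatives. P-values were adjusted by Benjamini-Hochberg over all genes, jointly over 5 comparisons (the 3 genotype comparisons and in C9-BACexp mice, crRNA-13 over each of the other treatments) and otherwise within the comparison. Calls needed a fold over 1.2 and an adjusted p under 0.05, except for crRNA-13 over NTG in the C57BL/6J mice (1.25 and 0.01).

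Groups came from the labels, and each library is 1 mouse. No count column was left without a sample. All 10 members were named; of other heparan sulfate genes, up to 4 called per list and comparison with the smallest p; and the 5 annotated genes with the highest Spearman correlation with Gpc6. The members and lists were chosen with earlier results of these data known. The fit was also run on simulated counts, which held no unwanted variation shared between genes. That run therefore cannot speak for calls that rest on the factors. Labels give groups shared replicate numbers, and same-numbered libraries did not deviate together in every pair, so the numbers were not taken to pair the mice.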

Additional observations from a re-analysis of the deposited data

Results flagged for a closer look

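In 3 of the 40 sets of libraries examined (10 genes in the 4 groups of 4 to 6 mice), 1 library stood apart from the rest of its group; chance gives about 1 in 20. Gpc1 stood at 105.31 CPM in C9-BACexp crRNA-13 replicate 2, against 53.8 to 69.9 CPM in the other 5 mice of the group. Gpc1 stood at 77.39 CPM in C57BL/6J NTG replicate 3, against 51.6 to 57.2 CPM in the other 4. Gpc4 stood at 25.213 CPM in C57BL/6J NTG replicate 1, against 9.83 to 13.3 CPM in the other 4. None of the 3 values belongs to a comparison in which the gene was called.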

How the results depend on the processing

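The calls rest on the factors of unwanted variation. With NTG, the number of members past the limits between genotypes was 2 with 4 factors, 0 without factors, 1 with 2 factors, 1 without the filter on low counts and 1 with DESeq2 without factors, and 1 to 3 when each library was left out. With EGFP-KASH only it was 1 with 4 factors, 0 without factors, 0 with 2 factors and 0 with DESeq2 without factors, and 0 to 1 when each library was left out. Over all genes, 1437 were called between genotypes with NTG, 237 with crRNA-13 and 623 with EGFP-KASH only, against in the same order 6, 4 and 4 without factors, 650, 35 and 136 with 2 factors, and 2246, 578 and 1283 with DESeq2 and the factors; limma-trend called 1463, 192 and 612. DESeq2 with the factors called 1 member for crRNA-13 over EGFP-KASH only in C9-BACexp mice (Gpc4), 1 for crRNA-13 over NTG in C57BL/6J mice and 1 for the difference of genotype differences (Gpc6 in both). The DESeq2 share of all genes is not given beside the Gpc4 call, so nothing is read from that count. Leaving out each library gave 0 to 1 members for crRNA-13 over NTG and over EGFP-KASH only in C9-BACexp mice and for that difference. Gpc6 passed in the first without C9-BACexp crRNA-13 replicate 1 (0.44). It passed in the last without that library (1.01) or C57BL/6J NTG replicate 5 (0.91). Because Gpc6 was selected on its genotype difference, nothing is read from these calls of it. With EGFP-KASH only, the sign turned for Gpc5 without C9-BACexp replicate 3 (0.14; range over left-out libraries -0.49 to 0.14) and for Gpc4 without C9-BACexp replicate 2 (0.0080; range -1.52 to 0.0080). The cause of these changes was not tested. Sdc4 with NTG passed without C9-BACexp NTG replicate 1 (-1.16).

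With the replicate number as a block, 1 member passed with NTG (Gpc6) and 0 with EGFP-KASH only, and 1015, 189 and 331 genes were called in that order. Deviations of same-numbered libraries correlated at -0.16 to 0.29 over 48 pairs, 10 of them above 0.1, so the numbers may mark no pairing. All 60 group means moved by less than 1 SD under DESeq2 size factors. Sdc1, Gpc2 and Gpc3 are limited by few counts or by libraries that nearly lack them.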
